A study of Homo sapiens with 9 samples.

Results

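The plasminogen activators PLAU (urokinase, uPA) and PLAT (tissue-type activator, tPA), the urokinase receptor PLAUR (uPAR) and the serpins SERPINE2 (protease nexin-1) and SERPINB2 (plasminogen activator inhibitor type 2, PAI-2) were examined in MDA-MB-231 cells. Their rows were found by symbol among the Ensembl identifiers of the count table, and all 5 were present among 24344 genes. MDA-MB-231 is an established triple-negative breast adenocarcinoma line of mesenchymal character. The treatments lasted 48 h and were Compound Kushen Injection (CKI), a combined extract of the herbs Kushen and Baituling, or an injection made from one of these herbs. CKI was used at 2.0 mg/mL of total alkaloids, and the Kushen and Baituling injections at the same dilution. Each treatment had 3 libraries of unstranded paired-end RNA sequencing, and untreated libraries were not analysed here. Each comparison is therefore between treated groups.

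Urokinase and tissue-type activator are secreted serine proteases that cut plasminogen into plasmin, a broad protease that dissolves fibrin, degrades matrix proteins and activates other proteases. The urokinase receptor is anchored to the membrane by a glycolipid and holds urokinase at the cell surface, where it also contacts integrins and vitronectin. Serpins are inhibitors that trap their protease in a covalent complex, and the complexes of urokinase with its inhibitors are cleared by LRP1. In breast cancer the system is best known for its part in invasion, and MDA-MB-231 cells are known to express urokinase and its receptor.

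The mean levels of PLAUR and SERPINB2 were highest in Baituling, lower in CKI and lowest in Kushen, although CKI and Kushen could not be told apart for SERPINB2, so the 250 bases before their RefSeq start are shown. Capitals mark matches to TGANTCA, the AP-1 motif, on either strand, and to TATAAA, the TATA motif. The AP-1 letters lie 186 to 180 bases before the start in PLAUR and 102 to 96 bases before it in SERPINB2, and the TATA letters 30 to 25 bases before it in SERPINB2.
PLAUR, chr19:43670170-43670419, GRCh38.p14, minus strand: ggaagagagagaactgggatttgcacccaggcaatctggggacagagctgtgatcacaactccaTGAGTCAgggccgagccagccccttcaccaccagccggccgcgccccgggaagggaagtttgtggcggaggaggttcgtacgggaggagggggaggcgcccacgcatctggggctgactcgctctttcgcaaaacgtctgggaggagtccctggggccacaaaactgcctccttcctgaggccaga
SERPINB2, chr18:63887455-63887704, GRCh38.p14, plus strand: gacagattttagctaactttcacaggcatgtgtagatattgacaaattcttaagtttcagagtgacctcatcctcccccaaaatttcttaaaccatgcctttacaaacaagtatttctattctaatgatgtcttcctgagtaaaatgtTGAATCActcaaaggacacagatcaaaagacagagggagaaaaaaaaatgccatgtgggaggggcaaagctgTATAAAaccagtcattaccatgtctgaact
Of the 5 genes, 4 had a promoter entry (not PLAT). TGANTCA was found in 2 of these 4 and in 6.60% of 27305 promoters of the same length. TATAAA was found in 1 of the 4 and in 11.1% of all. Among the other motifs searched on both strands, TGACNNNGC (ARE) was found in PLAU and SERPINE2 and in 11.0% of all promoters. GCGTG (XRE) was found in PLAUR and in 31.9% of all, and GGGCGG (Sp1) in SERPINE2 and in 42.3% of all. TGACGTCA (CRE), found in 1.77% of all promoters, was in none of the 4 windows. One stretch of bases can match both TGANTCA and TGACNNNGC. A match describes letters in this window and is not a measured binding site. The 2 windows shown were picked by the order of levels in these data, and a link between a motif and that order was not tested.

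On build GRCh37, PLAU (ENSG00000122861) lies on chromosome 10 at 75668935 to 75677254, with 11 exons in its canonical transcript. PLAUR (ENSG00000011422) lies on chromosome 19 at 44150247 to 44174699, with 7 exons. PLAT (ENSG00000104368) lies on chromosome 8 at 42032236 to 42065227, with 14 exons. SERPINE2 (ENSG00000135919) lies on chromosome 2 at 224839762 to 224904035, with 9 exons. SERPINB2 (ENSG00000197632) lies on chromosome 18 at 61538926 to 61571122, within the cluster of clade B serpins, and has 8 exons. PLAU overlaps C10orf55 on the opposite strand. The counting could not separate strands, but C10orf55 itself had 38 to 65 counts per library against 5923 to 8750 for PLAU.

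The libraries held 20144628 to 23782071 counts. CPM is the count of a gene brought to a common library size, here after scaling by TMM, a trimmed mean that assumes most genes do not differ. The line's 5 mesenchymal markers (VIM, CD44, AXL, ZEB1 and MSN) were at 65.0 to 2116 CPM in every library, but their summed level differed by treatment, with 5415 to 5481 CPM in Baituling, 3107 to 3119 in Kushen and 2254 to 2360 in CKI. VIM, the intermediate filament vimentin, averaged 2070 CPM in Baituling, 584 in Kushen and 351 in CKI. AXL and MSN had the same order. CD44 averaged 904, 644 and 616 CPM in that order, with Kushen and CKI close. ZEB1 did not follow the sum, at 68.5 CPM in Baituling, 71.6 in Kushen and 65.6 in CKI. Of the 4 luminal or epithelial markers, ESR1 and PGR had at most 4 counts, whereas GATA3 had 196 to 453 and CDH1 11 to 51, and the summed level was 22.6 to 26.9 CPM in Baituling and 8.71 to 11.1 in the other treatments. Of the 5 markers of other cell types, 4 were in the table: PTPRC, CDH5 and ALB had at most 9 counts, and COL1A1 (collagen I, a fibroblast marker) had 285 to 963, highest in CKI. VIM, GATA3, CDH1 and COL1A1 were called in CKI versus Baituling, at -2.56, -1.35, -1.34 and 1.13. VIM, GATA3 and CDH1 were also called in Kushen versus Baituling, at -1.83, -1.31 and -1.75. The part of these marker differences in the results for the 5 genes was not tested. Unscaled library totals moved the median over all genes of the log2 fold change by 0.08 for CKI over Kushen, by 0.29 for CKI over Baituling and by 0.21 for Kushen over Baituling. Results below are relative to TMM, and a direction that changes under library totals is named beside the result. A gene passed the test at an adjusted p under 0.05 in edgeR's quasi-likelihood fit of all 9 libraries (Benjamini-Hochberg over 14195 genes), and was called when its log2 fold change was also beyond 1 in either direction. In bulk RNA, fewer cells expressing a gene and less of its RNA per cell cannot be told apart.

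To compare levels between the genes, CPM was divided by the length of the canonical transcript. By that length PLAT had the highest level per kilobase of the 5 in each treatment, with 376 ± 19.2 in Kushen, 296 ± 2.24 in Baituling and 292 ± 10.9 in CKI (mean CPM per kilobase ± SD, n = 3). PLAU followed in CKI (104 ± 5.38) and Kushen (148 ± 5.65). In CKI the level per kilobase of PLAUR (99.9 ± 5.12) did not differ from that of PLAU beyond the spread. In Baituling PLAUR stood at 176 ± 3.03 per kilobase, above PLAU at 155 ± 1.94. These orders depended on the length used. Over the union of all annotated exons PLAU stood at 82.7 and PLAUR at 30.7 per kilobase in CKI, and in Baituling PLAU was first at 123, above PLAT at 117 and PLAUR at 54.2. SERPINE2 was lower, at 15.3 to 16.8 per kilobase, and SERPINB2 was near the limit of detection at 0.0603 to 0.617.

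PLAU encodes urokinase. Its 3 CKI libraries stood at 232, 242 and 257 CPM, its Kushen libraries at 352, 331 and 356 CPM, and its Baituling libraries at 358, 363 and 367 CPM. Every CKI library lay below every library of the single injections. Set against Kushen, PLAU fell in CKI with a log2 fold change of -0.51 ± 0.04 (SE, edgeR adjusted p 5.87e-08), or 1.42-fold. Set against Baituling it fell with -0.57 ± 0.04 (adjusted p 5.75e-10), or 1.49-fold. Between Kushen and Baituling the log2 fold change was -0.066, with a 95% confidence interval of -0.16 to 0.026 (edgeR adjusted p 0.186), and under library totals it was 0.15 with an adjusted p of 0.00433. The lower level in CKI than in either single injection also passed under library totals, at -0.43 against Kushen and -0.29 against Baituling.

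PLAUR encodes the receptor that holds urokinase at the membrane. It stood at 129, 138 and 143 CPM in CKI, at 93.9, 101 and 108 CPM in Kushen and at 245, 237 and 242 CPM in Baituling. The groups did not overlap, with CKI between the single injections. PLAUR rose in CKI over Kushen, with a log2 fold change of 0.44 ± 0.05 (SE, edgeR adjusted p 2.29e-06). It was lower in CKI than in Baituling, at -0.82 ± 0.05 (adjusted p 1.41e-11), and lower in Kushen than in Baituling, at -1.26 ± 0.05 (adjusted p 4.58e-14), or 2.39-fold. This last was the PLAUR fold change past the threshold of 1. Under library totals it was -1.05.

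PLAT encodes the tissue-type activator, which is known for fibrinolysis in blood. Its libraries stood at 855, 904 and 920 CPM in CKI, at 1087, 1202 and 1167 CPM in Kushen and at 903, 902 and 914 CPM in Baituling. The Kushen libraries lay above the other groups, which overlapped. PLAT had a log2 fold change of -0.37 ± 0.04 for CKI over Kushen (SE, edgeR adjusted p 2.21e-06) and one of 0.35 ± 0.04 for Kushen over Baituling (adjusted p 6.13e-07), or 1.27-fold. CKI and Baituling differed by -0.021, with a 95% confidence interval of -0.11 to 0.069 (edgeR adjusted p 0.661). That difference turned direction to 0.27 under library totals, where its adjusted p was 1.78e-06, so that the order of CKI and Baituling rests on the scaling.

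SERPINE2 encodes protease nexin-1, an inhibitor of thrombin, urokinase and tissue-type activator that acts at the cell surface. It stood at 38.6, 36.8 and 36.7 CPM in CKI, at 33.6, 35.2 and 33.1 CPM in Kushen and at 35.6, 34.4 and 33.7 CPM in Baituling. The CKI libraries lay above the others by a small margin, while Kushen and Baituling overlapped. SERPINE2 did not pass in any comparison: the log2 fold change was 0.14 (95% confidence interval 0.024 to 0.25, edgeR adjusted p 0.0503) in CKI versus Kushen and 0.11 (-0.0035 to 0.23, adjusted p 0.0726) in CKI versus Baituling. In Kushen versus Baituling it was -0.025 (-0.14 to 0.092, adjusted p 0.702). Without Kushen replicate 2 the first of these passed, at 0.16 with an adjusted p of 0.0443. Under library totals SERPINE2 passed in each comparison, at 0.21, 0.40 and 0.19, the last with the direction turned.

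SERPINB2 encodes PAI-2, an inhibitor of urokinase that is mostly kept inside the cell. It had 10, 8 and 4 counts in the CKI libraries, 0, 3 and 5 in the Kushen libraries and 8, 25 and 32 in the Baituling libraries. Baituling replicate 1 lay in the range of CKI, and the other Baituling libraries lay above every CKI and Kushen library. SERPINB2 passed the filter on low counts with 10 or more counts in 3 libraries, of which 2 were Baituling libraries, so its place among the tested genes rested mainly on the group where it was high. It averaged 1.18 ± 0.709 CPM in Baituling, 0.291 ± 0.120 in CKI and 0.115 ± 0.111 in Kushen (SD, n = 3). The log2 fold change was -1.97 in CKI versus Baituling (95% confidence interval -3.06 to -0.87, edgeR adjusted p 0.00222) and -3.30 in Kushen versus Baituling (-4.66 to -1.95, adjusted p 0.000138). In CKI versus Kushen it was 1.34 (-0.38 to 3.06, adjusted p 0.209), not detectable at this depth. The folds were imprecise at so few counts. Without Baituling replicate 1 the fold changes against Baituling were -2.41 and -3.74, and without Baituling replicate 3 they were -1.55 and -2.89. Against Kushen, the value without Kushen replicate 1 was 0.75 and without Kushen replicate 3 it was 2.15. Without Kushen replicate 3 that against Baituling was -4.11, and without Kushen replicate 1 it was -2.72.

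**Figure D1:**
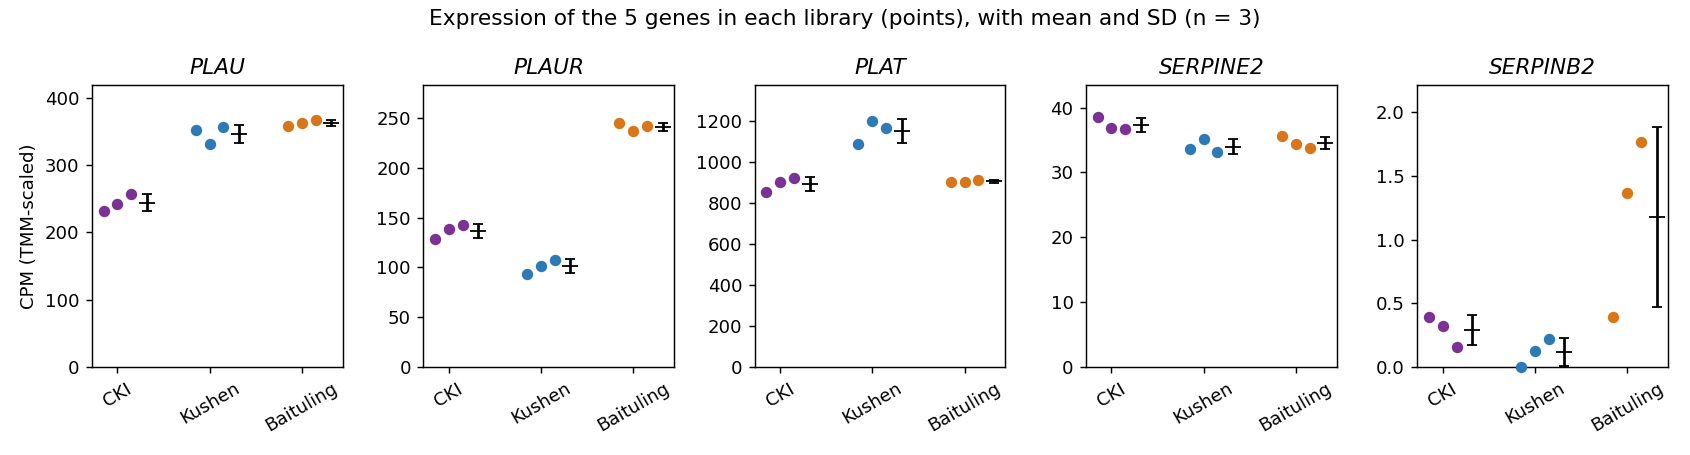
Expression of the 5 genes in CPM scaled by TMM (vertical axes, each from 0) in every library of CKI, Kushen and Baituling, with the group mean and SD (n = 3) as a black bar. PLAU is lower in the 3 CKI libraries (232 to 257 CPM) than in the other 6, PLAUR is highest in Baituling, PLAT is highest in Kushen, and SERPINB2 is below 2 CPM throughout.

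Of the 5 genes, 3 passed the test in each comparison. For CKI over Kushen these were PLAU and PLAT, lower in CKI, and PLAUR, higher in CKI, while 39.8% of all genes tested passed, 19.6% higher and 20.2% lower. For CKI over Baituling they were PLAU, PLAUR and SERPINB2, each lower in CKI, while 76.1% of all genes passed, 39.1% higher and 37.0% lower. For Kushen over Baituling they were PLAUR and SERPINB2, lower in Kushen, and PLAT, higher in Kushen, while 71.6% of all genes passed, 35.6% higher and 36.1% lower. SERPINB2 was tested mainly through Baituling, the group where it was high. In fits of only the 2 groups compared it was not tested, and 2 of the other 4 genes passed in each comparison with Baituling.

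Called genes were fewer. For CKI over Kushen edgeR called 0 of the 5, and DESeq2 and limma voom also called 0, while 4 had an unadjusted p under 0.05. Of all genes 1.90% were called there, 1.70% higher and 0.197% lower. For CKI over Baituling 1 was called, SERPINB2, beside 19.1% of all genes, 11.2% higher and 7.91% lower. For Kushen over Baituling 2 were called, PLAUR and SERPINB2, beside 15.2% of all genes, 8.50% higher and 6.73% lower. The calls of SERPINB2 rest on a gene tested mainly through Baituling, where it was high. In fits of only the 2 groups compared, where it was not tested, 0 genes were called for CKI and 1 for Kushen over Baituling. The libraries of the groups did not overlap for 4 of the 5 genes in CKI versus Kushen (49.5% of all genes), for 3 in CKI versus Baituling (78.3%) and for 4 in Kushen versus Baituling (73.1%).

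The median size of the log2 fold change over the 5 genes, direction set aside, was 0.44 for CKI over Kushen, where all genes had 0.17. It was 0.57 beside 0.46 for CKI over Baituling, and 0.35 beside 0.41 for Kushen over Baituling. The share of tested genes with a larger fold change, in either direction, differed by gene and comparison. For PLAU it was 11.0% for CKI over Kushen, 41.2% for CKI over Baituling and 90.7% for Kushen over Baituling. In the same order it was 14.7%, 26.5% and 9.91% for PLAUR, and 19.95%, 97.4% and 56.4% for PLAT. SERPINE2 had 58.5%, 86.6% and 96.5%. SERPINB2 had 0.930%, 4.61% and 0.416%, at few counts.

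**Figure D2:**
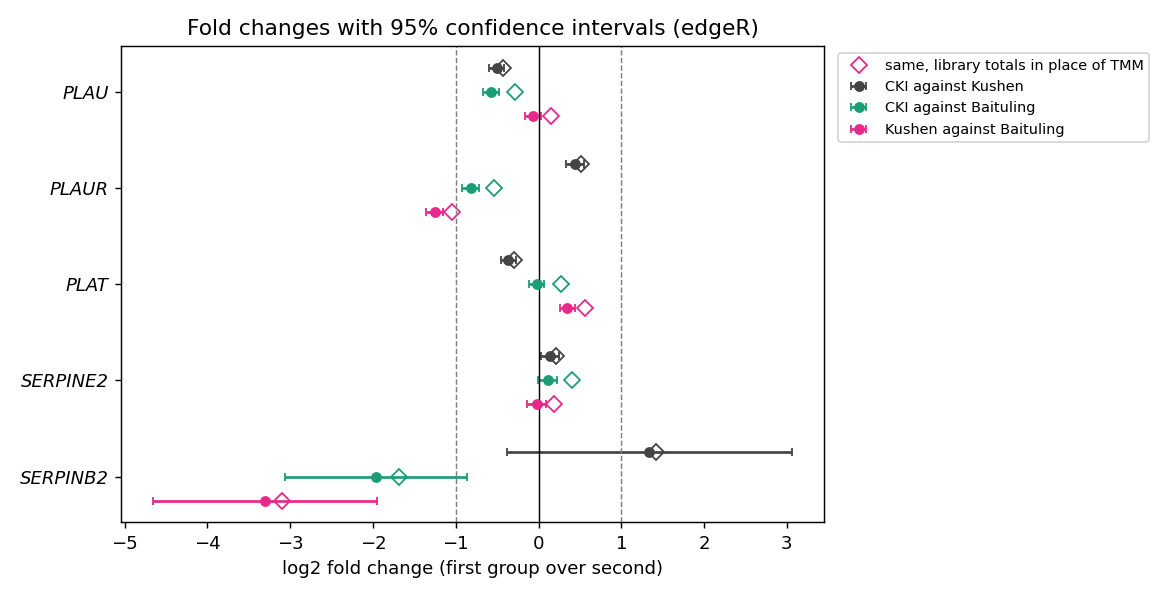
Log2 fold changes of the 5 genes in the 3 comparisons (horizontal axis, first group over second) with 95% confidence intervals from edgeR as bars on filled points, and the values under library totals as open diamonds. Dashed lines mark a log2 fold change of -1 and 1. The diamonds of PLAT in CKI versus Baituling and of PLAU and SERPINE2 in Kushen versus Baituling fall on the other side of 0 from the filled points.

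Ratios of counts within a library do not depend on the scaling and were added after the values were seen. Reads of PLAU per read of PLAUR, ligand over receptor, were 1.80, 1.75 and 1.81 in CKI, 3.75, 3.27 and 3.30 in Kushen, and 1.46, 1.53 and 1.52 in Baituling. The 3 groups did not overlap, and the ratio was 1.92-fold lower in CKI than in Kushen and 1.19-fold higher than in Baituling. Reads of PLAT per read of PLAU were 3.68, 3.74 and 3.57 in CKI, 3.09, 3.63 and 3.28 in Kushen, and 2.52, 2.48 and 2.49 in Baituling. Baituling lay lowest without overlap, whereas CKI and Kushen overlapped (two-sided exact permutation p 0.2). For each of the comparisons without overlap the two-sided exact permutation p was 0.1, the smallest that 3 libraries against 3 allow, and adjusted over the 6 comparisons of ratios it was 0.12.

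**Figure D3:**
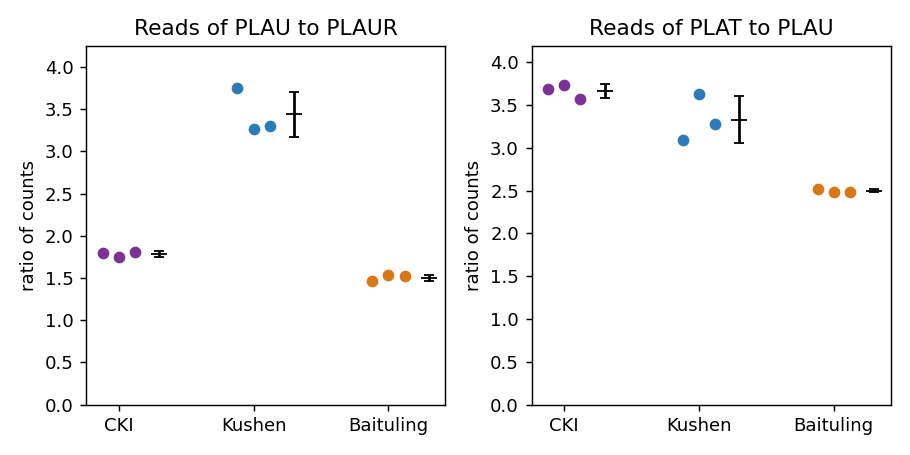
Ratios of raw counts within each library (vertical axes, each from 0) of PLAU to PLAUR and of PLAT to PLAU in CKI, Kushen and Baituling, with mean and SD (n = 3) as black bars. The PLAU to PLAUR ratio is highest in Kushen (3.27 to 3.75), and the PLAT to PLAU ratio is lowest in Baituling (2.48 to 2.52).

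The other genes of the pathway were taken from lists of inhibitors, of receptors and cofactors and of proteases. Of 11 listed inhibitors, 8 were tested. In CKI versus Baituling 4 rose and 2 fell. The same numbers were found for Kushen over Baituling, and for CKI over Kushen 4 rose and 1 fell. Their median log2 fold change was 0.90 for CKI over Baituling, beside 0.034 over all genes. It was 0.48 beside 0.018 for Kushen over Baituling and 0.26 beside 0.0079 for CKI over Kushen. These medians are over 8 genes that lay far apart. Among them is A2M, which was tested mainly through the group where it was high. The 2 middle values were 0.32 and 1.49 for CKI over Baituling, and 0.13 and 0.84 for Kushen over Baituling. Under library totals these counts of passing genes did not change. Of all genes tested, 76.1% passed for CKI over Baituling, 71.6% for Kushen over Baituling and 39.8% for CKI over Kushen with TMM. TFPI2, a Kunitz inhibitor of plasmin, averaged 55.7 ± 0.369 CPM in Baituling, 99.4 ± 2.35 in Kushen and 156 ± 2.88 in CKI, and rose by 1.49 ± 0.04 in CKI over Baituling (edgeR adjusted p 1.95e-16). SPINT1, which inhibits matriptase and the activator of hepatocyte growth factor, averaged 19.1 ± 1.05, 55.7 ± 4.91 and 65.3 ± 1.68 CPM in the same order and rose by 1.78 ± 0.07. SERPINI1 (neuroserpin), an inhibitor of tissue-type activator, rose by 2.70 ± 0.11 in CKI and by 2.36 ± 0.12 in Kushen over Baituling, from 3.45 ± 0.584 CPM. SPINT2, the tested inhibitor with the highest CPM, passed lower in each comparison without being called. It averaged 448 ± 13.9 CPM in Baituling, 283 ± 13.6 in Kushen and 245 ± 9.17 in CKI. Its log2 fold change was -0.87 ± 0.05 in CKI versus Baituling.

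At the low end, A2M, a broad protease trap, had 38, 59 and 35 counts in CKI, 12, 8 and 9 in Kushen and 2, 1 and 0 in Baituling. It rose in CKI over Kushen by 2.10 ± 0.33 (edgeR adjusted p 5.54e-05), but it reached 10 counts in 3 CKI libraries and 1 Kushen library, so that it was tested mainly through the group where it was high. SERPINA5, the protein C inhibitor, went the other way, with 84 to 96 counts per Baituling library and 48 to 64 per CKI or Kushen library. Its log2 fold change was -1.01 ± 0.15 in CKI and -1.17 ± 0.16 in Kushen versus Baituling, and it was no longer called under library totals. TFPI2, SPINT1, SERPINI1, SPINT2 and A2M, and ANXA2, CAV1, FPR1, FPR2, ITGB3 and KRT8 below, overlap a gene on the opposite strand.

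Of 19 listed receptors and cofactors, 18 were tested. In CKI versus Baituling 4 rose and 13 fell, with a median log2 fold change of -0.40, and for CKI over Kushen 1 rose and 11 fell, with a median of -0.25. In Kushen versus Baituling 7 rose and 9 fell, with a median of -0.087. Under library totals 5 rose and 8 fell in CKI versus Baituling, with a median of -0.11, 3 rose and 11 fell for CKI over Kushen, with -0.17, and 9 rose and 8 fell in Kushen versus Baituling, where the median turned to 0.13. With TMM, 39.1% of all genes passed higher and 37.0% lower in CKI versus Baituling, and 19.6% and 20.2% for CKI over Kushen. In Kushen versus Baituling 35.6% passed higher and 36.1% lower. The medians over all genes were 0.034, 0.0079 and 0.018 in the same order. ANXA2 and S100A10, which form the annexin A2 heterotetramer that binds plasminogen and tissue-type activator at the membrane, were lower in CKI than in Baituling, with log2 fold changes of -1.38 ± 0.04 and -1.03 ± 0.05 (edgeR adjusted p 1.66e-16 and 1.77e-13). ANXA2 averaged 3162 CPM in Baituling, 1496 in Kushen and 1214 in CKI. KRT8, another plasminogen-binding protein at the cell surface, fell by 1.28 in CKI and by 1.07 in Kushen versus Baituling on the log2 scale. Reads of ANXA2 and KRT8 can be shared with pseudogene copies, so their values are less certain.

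CAV1, which associates with the urokinase receptor and integrins, was lower than in Baituling in both other treatments, at -1.40 ± 0.04 in CKI and -1.47 ± 0.04 in Kushen on the log2 scale (edgeR adjusted p 2.70e-16 for each). FPR1, a chemotactic receptor that interacts with the urokinase receptor, was lower likewise, at -1.41 ± 0.08 and -1.25 ± 0.08. Its relative FPR2 had 14 or 15 counts per Baituling library and 2 to 13 elsewhere, and was tested mainly through Baituling. ITGB3, a beta subunit of vitronectin receptors, rose by 1.39 ± 0.12 in CKI and by 1.35 ± 0.12 in Kushen over Baituling (edgeR adjusted p 1.67e-09 and 4.04e-09), from 4.38 CPM. Not every integrin subunit of the list went the same way, and some at higher levels fell. S100A10, FPR2 and KRT8 in CKI versus Baituling, and ANXA2 and KRT8 in Kushen versus Baituling, were no longer called under library totals, with the direction kept.

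Of the 9 listed proteases, which include plasminogen, 4 were tested, and no gene of this list was called. PLG itself had 0 counts in every library, which allows up to 3 counts per library by counting error alone. At an adjusted p under 0.05, 3 rose and 1 fell for CKI over Kushen, 2 rose and 2 fell for CKI over Baituling, and 1 rose and 2 fell for Kushen over Baituling. Of all genes tested, 39.8%, 76.1% and 71.6% passed in the same order. Over these 39 inhibitors, receptors, cofactors and proteases, of which 30 were tested, 1 was called for CKI over Kushen, beside 1.90% of all genes. For CKI over Baituling 5 were called higher and 7 lower, beside 19.1% of all genes, and for Kushen over Baituling 4 higher and 6 lower, beside 15.2%. The call for CKI over Kushen was A2M. A2M and FPR2, which are also among the calls against Baituling, were tested mainly through the group where each was high.

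**Figure D4:**
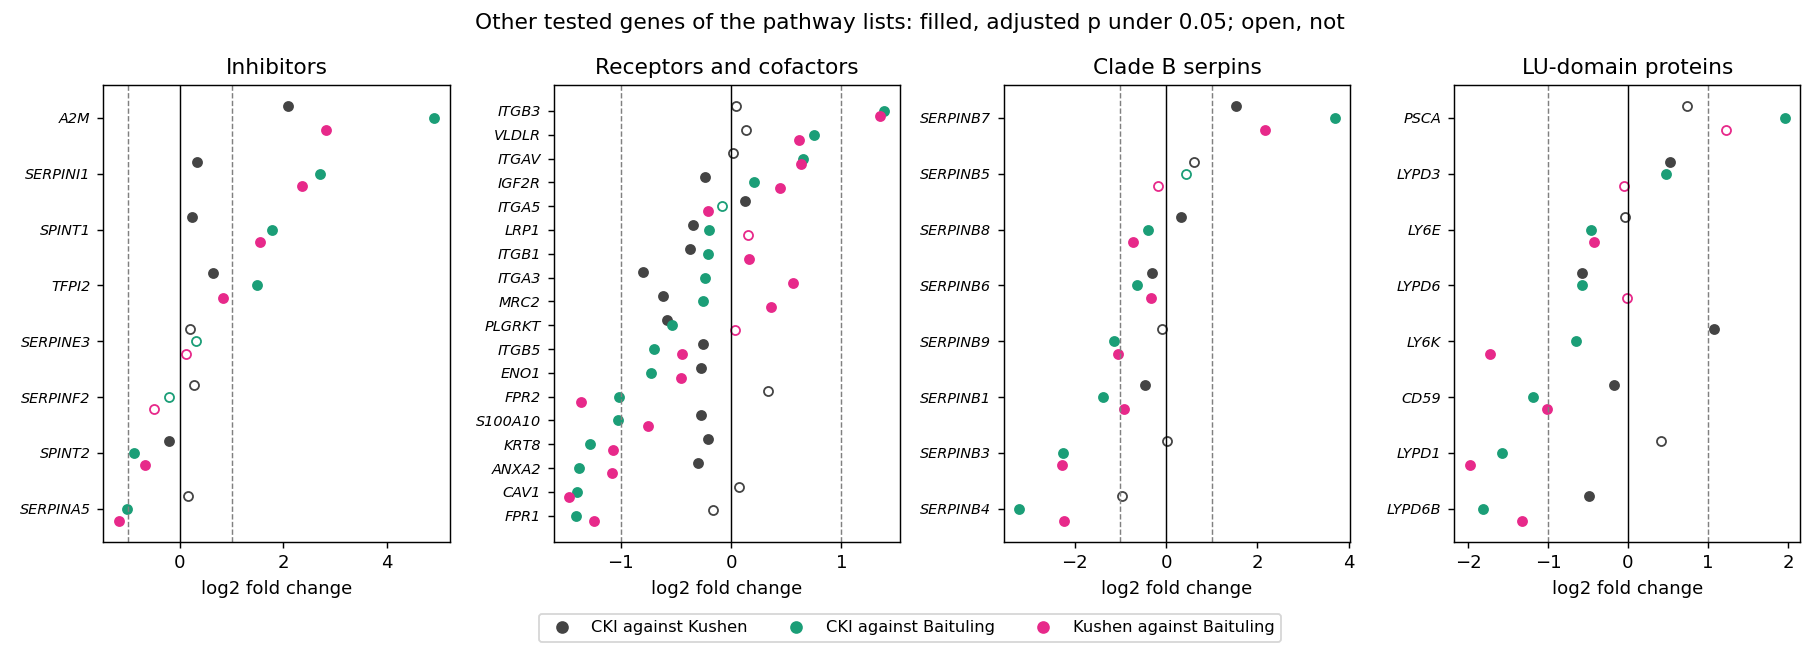
Log2 fold changes (horizontal axes, first group over second) of the tested genes of 4 lists (inhibitors, receptors and cofactors, clade B serpins, and proteins with the LU domain of PLAUR) in the 3 comparisons. Filled points had an adjusted p under 0.05 in edgeR and open points did not, and dashed lines mark -1 and 1. In CKI versus Baituling 4 inhibitors lie beyond 1 on the right, with SERPINI1 at 2.70, and most receptors and cofactors lie to the left in CKI versus Baituling, with CAV1 at -1.40. The positions of A2M and SERPINB7 against Baituling rest on 0 to 6 counts per Baituling library and depend on the fit.

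For each of the 5 genes the nearest patterns in the table were found by the root mean square difference of log2 CPM over the 9 libraries, each gene centred on its mean, leaving out genes whose mean log2 CPM was below 1. PLAU had EFNB2 and CLDN2 (both 0.059) among its 3 nearest, against its own root mean square deviation of 0.26. PLAUR was followed by SLC1A5 (0.035), a glutamine transporter, CGAS (0.058) and SMOX (0.069), against its own 0.52. SLC1A5 averaged 476 CPM in Baituling, 264 in CKI and 202 in Kushen. PLAT was followed by SLC26A2, MLEC and RPS6KA2 (0.045 to 0.048, against 0.17). SERPINE2, which varied little (0.069), was followed by MRPL10, PRPF4 and RTCB (0.028 to 0.033). For SERPINB2 the nearest were SGK1 (0.66), FAM78B and DMTN (both 0.67), against its own 1.28. SERPINB2 had 0 to 32 counts per library and lay below the cut itself. These distances therefore include its counting error, and genes as low as SERPINB2 were not compared. SGK1 averaged 48.4 CPM in Baituling, 18.3 in CKI and 8.62 in Kushen. The 9 libraries form 3 treatment groups, so a likeness of pattern is mostly one over 3 levels.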

How the data were processed

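RNA from 9 libraries of MDA-MB-231 cells (3 treatments, 3 libraries each, grouped by the treatment and replicate number in the GEO titles) was analysed. The authors trimmed reads with Trim Galore 0.3.7, aligned them with STAR 2.5.3a to hg19 and deposited raw whole-number counts per gene, without normalization. The counting program and gene annotation are not given in the sources used here. Repeated Ensembl rows (222 of 24566, with identical counts) were dropped, and names and positions came from GENCODE v44 lifted to GRCh37, the assembly of hg19. Promoter sequences came from RefSeq on GRCh38.p14. Totals of 20144628 to 23782071 counts per library make counting error small for all members but SERPINB2.

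Genes were kept by filterByExpr (minimum count 10, minimum total 15; 14195 of 24344 genes) in edgeR 4.0.16 (R 4.3.3), scaled by TMM and fitted with glmQLFit and glmQLFTest, group as the only term, all 9 libraries together. Two-sided p-values were adjusted by the Benjamini-Hochberg method. Standard errors and 95% intervals were derived from the F statistics. The fit was tested on simulated counts. DESeq2 1.42.0, limma 3.58.1 (voom), other scalings, other filters, fits of the groups compared alone, a replicate block and omission of each library were the alternatives. Libraries of a group differed by a chi-square of 1.70 to 6.85 per gene for the genes reaching 20 reads (9 pairs), so no library was counted as a copy of another. The design text calls them biological replicates, without saying how they were separated, so p-values measure the spread between these libraries. No explanation of a difference was tested. Named genes were the 5 members, called genes of the pathway lists (at most 6 per list and comparison, by size) and the 3 nearest patterns per member. SPINT2 was added to these as the tested inhibitor with the highest CPM. Some genes that this rule or the lists would name are not reported here and are left out of the list counts. The members and lists were chosen with earlier results of these data known.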

Additional observations from a re-analysis of the deposited data

How the results depend on the processing

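Over 15 pairs of gene and comparison, 249 values were recomputed under alternatives, of which 235 kept their direction and their side of an adjusted p of 0.05. The signs of PLAU and PLAUR in the comparisons with CKI, of PLAUR and PLAT in Kushen against Baituling, and of PLAT in CKI against Kushen were among them. With unscaled library totals PLAT in CKI against Baituling was 0.27, PLAU in Kushen against Baituling 0.15 and SERPINE2 in Kushen against Baituling 0.19, each reversed, and SERPINE2 passed at 0.21 against Kushen and 0.40 against Baituling in CKI, so that 5 genes passed in each comparison with Baituling. With at least 10 counts in every library SERPINB2 could not be tested, PLAT in CKI against Baituling was 0.021, SERPINE2 was 0.15 and 0.15 in CKI and past the threshold, and 0.0080 in Kushen against Baituling. That filter left 0 and 1 called genes of the 5 in the comparisons of CKI and of Kushen with Baituling. Of the 5 lists together (with the clade B serpins and LU-domain proteins) it left 1, 12 and 11 called genes in the 3 comparisons. The main fit called 3, 21 and 18 of the 46 tested, beside 1.90%, 19.1% and 15.2% of all genes. A2M, FPR2, SERPINB3, SERPINB4, SERPINB7, LYPD1 and PSCA could not be tested under that filter. In the comparisons with Baituling this does not cover every lost call. With only the groups compared in the fit, SERPINB2 did not pass the filter, and the numbers called against Baituling were again 0 and 1. With limma voom SERPINE2 passed at 0.14 in CKI against Kushen. Leaving out each library gave 0.11 to 0.16 for SERPINE2 in CKI against Kushen, -0.045 to 0.0082 for PLAT in CKI against Baituling (above 0 without CKI replicate 1), and -0.053 to 0.0056 for SERPINE2 in Kushen against Baituling (above 0 without Kushen replicate 3 or Baituling replicate 1). Over all genes the filter of at least 10 counts in every library left 102, 1808 and 1415 called, in place of 270, 2715 and 2162. The genes tested differed between the filters, so these numbers are not shares of the same set. Library totals also moved the share of called genes that were higher, over all genes, from 58.6% to 80.0% for CKI over Baituling and from 55.8% to 74.6% for Kushen over Baituling. The cause of these changes was not tested.

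The replicate numbers did not pair the libraries: correlations of deviations were -0.07 to 0.12 for the 9 pairs with the same number and -0.15 to 0.18 for the 18 others. With the replicate block PLAU was -0.51 in CKI against Kushen, and 269, 2713 and 2158 genes were called over the whole table. No call of the 5 genes changed. Depth limited SERPINB2 alone, at 0 to 32 counts per library.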

Other observations

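The relatives of SERPINB2 and PLAUR by family were also read, as lists that stand outside the plasminogen pathway proper. Of 12 other clade B serpins, 8 were tested, and in CKI against Baituling 1 rose and 6 fell, with a median log2 fold change of -0.90. Under library totals 1 rose and 5 fell there. With TMM, 39.1% of all genes passed higher and 37.0% lower in that comparison. In Kushen against Baituling 1 rose and 6 fell, also under library totals, while 35.6% of all genes passed higher and 36.1% lower. SERPINB7 was the gene that rose, with 94, 80 and 106 counts in CKI, 32, 32 and 28 in Kushen and 6, 5 and 5 in Baituling, and a rise of 1.53 ± 0.18 in CKI over Kushen (edgeR adjusted p 3.16e-06). It reached 10 counts in 3 CKI, 3 Kushen and 0 Baituling libraries, so against Baituling it was tested through the groups where it was high. SERPINB1, an inhibitor of neutrophil proteases, averaged 247 ± 3.18 CPM in Baituling, 129 ± 3.41 in Kushen and 94.3 ± 2.23 in CKI, and SERPINB9, the granzyme B inhibitor, 142 ± 1.33, 68.5 ± 2.84 and 64.0 ± 1.06 (SD, n = 3). SERPINB4 had 34 to 41 counts per Baituling library and 4 to 12 elsewhere, and SERPINB3 14 to 23 and 1 to 7. These neighbours of SERPINB2 on chromosome 18 are near-identical copies of each other, so the split of their reads is uncertain. SERPINB4 reached 10 counts in 0 CKI, 2 Kushen and 3 Baituling libraries, so it was tested mainly through Baituling.

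Of 9 other proteins with the LU domain of the urokinase receptor, 8 were tested. In CKI against Baituling 2 rose and 6 fell, or 2 and 5 under library totals, while 76.1% of all genes tested passed. In Kushen against Baituling 5 fell and none rose, or 1 under library totals, while 71.6% of all genes passed. CD59, the inhibitor of the complement membrane attack complex, averaged 709 ± 10.8 CPM in Baituling, 352 ± 6.31 in Kushen and 312 ± 3.23 in CKI, a log2 fold change of -1.19 ± 0.04 in CKI against Baituling (edgeR adjusted p 8.11e-16). CD59 and SERPINB9 were no longer called under library totals, with the direction kept. LY6K had an order like that of PLAUR, with 4.01 ± 0.695 CPM in Baituling, 2.57 ± 0.0146 in CKI and 1.20 ± 0.359 in Kushen, and rose in CKI over Kushen by 1.08 ± 0.22 (adjusted p 0.00064). LYPD6B (96 to 127 counts per Baituling library) and LYPD1 (21 to 41) were lower in both other treatments, and PSCA, at 2 to 25 counts per library, was higher in CKI than in Baituling by 1.96 ± 0.53 (adjusted p 0.00239). PSCA reached 10 counts in 3 CKI, 2 Kushen and 0 Baituling libraries, and SERPINB3 in 3 Baituling libraries alone, so that these genes were tested through the groups where they were high.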
